A study of Mus musculus with 10 samples.

Results

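Mediator is the protein complex that carries signals from transcription factors to RNA polymerase II, and the transcripts of its subunits were examined in mouse colon after dextran sulfate sodium (DSS) colitis. The members were the genes with the symbol *Med* and a number, with or without a final l, together with *Cdk8*, *Cdk19* and *Ccnc*. They came to 33 of the 56691 genes in the table, and all 33 were among the 16545 genes with enough counts to be tested. The complex was proposed because *Med12* was known to have a p-value among the smallest in the comparison of these mice, so the difference between groups was used to choose the members. The differences of the members between ceAF and DSS mice are therefore a description and carry no test.

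The samples were colon tissue of 10 male C57BL/6 mice aged 8 weeks. The 5 mice of the DSS group drank 3% DSS for 7 days. The 5 mice of the ceAF group drank the same DSS and then received early chick embryo amniotic fluid (ceAF) by gavage, at 15 mL/kg for 10 days. Mice without DSS and mice given mesalazine are not analysed here. Each mouse gave a library of poly(A) RNA, with total counts from 14676471 to 19901549. Mitochondrial genes took 9.66% of counts in ceAF-1, 9.74% in ceAF-5 and 7.24% in ceAF-4, against 4.53% to 6.54% in the other mice. On the first principal component of all tested genes, with 30.8% of the variance, ceAF-1 stood apart at 93.5, while the other mice lay between −45.5 and 16.0.

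Mediator is built of a head and a middle that contact the polymerase, a tail that receives transcription factors, and the long subunit Med14 that holds these parts together. A separable kinase module docks on this core and keeps the polymerase away while bound. It holds the kinase Cdk8 or its paralog Cdk19, cyclin C from *Ccnc*, Med12, which activates the kinase, or its paralog Med12l, and Med13 or Med13l, which ties the module to the core. In the large intestine *CDK8* is known as an oncogene of colorectal cancer that acts on β-catenin target genes.

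Over all genes, the quasi-likelihood test of edgeR, adjusted by Benjamini-Hochberg, called 0 genes (0%) at an adjusted p under 0.05, and 0 of the 33 members. The smallest adjusted p was 0.656, and DESeq2 called 31 genes, 4 of them higher with ceAF. At an unadjusted p under 0.05 there were 1146 genes. Among the members, 2 were higher with ceAF at that limit, where 3.26% of all tested genes were, and 0 were lower, where 3.67% of all tested genes were. The 2 were *Med12* and *Med17*. On the FPKM scale, at either pseudocount, the members at that limit were *Med12* and, lower with ceAF, *Med28*. Of all genes, 1009 passed it at a pseudocount of 1 and 990 at 0.1. Without ceAF-1 the members were *Med12* and *Ccnc*, both higher, and *Med28*, lower, while 1872 of all genes passed the limit. With *Med12* and *Med17* higher, *Med10* was lower without DSS-5, and *Med15* was higher without ceAF-5 and with upper quartile normalization. In these fits 1609, 962 and 1111 of all genes passed it, in that order. The ceAF mice all lay above the DSS mice in 2 members, *Med12* and *Ccnc*, as in 0.774% of all tested genes, and all below them in 0 members, as in 0.465% of all tested genes. Nothing is read from these shares, since the same contrast chose the members.

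*Med12* (ENSMUSG00000079487) lies on the plus strand of chromosome X, from 100317636 to 100341071 in the positions of the table, whose build is not named. Its level in TMM-normalized CPM, the count scaled to the size of the library, was 48.7, 44.4, 46.0, 36.2 and 44.2 in DSS-1 to DSS-5. In ceAF-1 to ceAF-5 it was 57.6, 56.8, 57.4, 71.1 and 64.5 CPM. The groups did not overlap, with DSS-4 the lowest of the DSS mice and ceAF-4 the highest of the ceAF mice. The means were 43.9 ± 4.64 CPM in DSS and 61.5 ± 6.24 in ceAF (SD, n = 5 each), a log2 fold change of 0.49 (standard error 0.10). The gene ranked 12 of 16545 by p, and its Benjamini-Hochberg adjusted p was 0.656 by the quasi-likelihood test of edgeR. DESeq2 with the same adjustment gave *Med12* an adjusted p of 0.047, and the other alternatives gave from 0.337 to 1. In the FPKM values that the authors deposited the groups came closer together, the lowest ceAF mouse at 6.68 and the highest DSS mouse at 6.56. In bulk tissue, fewer cells of a type and less RNA per cell cannot be told apart, and this holds for every level given here.

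*Ccnc*, which encodes the cyclin partner of both kinases, had 30.5, 34.4, 34.0, 35.54 and 33.4 CPM in DSS-1 to DSS-5. In the ceAF mice it had 35.56, 36.1, 36.2, 42.0 and 40.0 CPM. The groups were separated only by the gap between DSS-4 and ceAF-1, and in FPKM they overlapped, with the lowest ceAF mouse at 6.21 and the highest DSS mouse at 6.82. The log2 fold change was 0.18 (standard error 0.09). The table places *Tstd3* on the opposite strand over part of *Ccnc*, and whether the counting used strand is not given in the sources used here, so reads of the overlap may belong to either gene.

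The kinase *Cdk8* had 69.2, 61.8, 63.6, 64.0 and 66.9 CPM in DSS-1 to DSS-5. It had 65.6, 72.8, 69.1, 78.0 and 72.4 CPM in ceAF-1 to ceAF-5. The ranges overlapped, with DSS-1 above ceAF-1 and ceAF-3 and DSS-5 above ceAF-1, and the log2 fold change was 0.14 (standard error 0.08). Its paralog *Cdk19* had 51.7, 43.8, 48.2, 40.5 and 39.7 CPM in the DSS mice. It had 46.2, 42.0, 48.2, 55.7 and 37.2 CPM in the ceAF mice. Here the ceAF group held both the highest mouse, ceAF-4, and the lowest, ceAF-5, and the log2 fold change was 0.03 (standard error 0.12).

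*Med13*, the link to the core, had 90.0, 107, 100.9, 94.1 and 95.8 CPM in DSS-1 to DSS-5. It had 113.7, 102.8, 122.3, 98.2 and 76.6 CPM in ceAF-1 to ceAF-5. The ceAF mice enclosed the DSS mice on both sides, with ceAF-3 highest and ceAF-5 lowest, and the log2 fold change was 0.07 (standard error 0.12). *Brip1os* overlaps *Med13* on the opposite strand in the table, with 69.2% as many counts, so its level is uncertain in the same way. *Med13l* had 48.7, 46.7, 56.4, 37.7 and 45.9 CPM in the DSS mice. In the ceAF mice it had 60.0, 38.5, 49.5, 58.3 and 35.8 CPM. The mice ceAF-1 and ceAF-4 lay above all DSS mice and ceAF-5 below them, with a log2 fold change of 0.04 (standard error 0.16).

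*Med12l* was the scarcest member, with 11 to 61 counts per mouse. Its levels were 2.38, 2.65, 2.69, 2.05 and 1.56 CPM in DSS-1 to DSS-5. In ceAF-1 to ceAF-5 they were 0.839, 3.58, 2.36, 1.55 and 3.35 CPM. The ceAF mice spread more widely, from ceAF-1 to ceAF-2, and enclosed all DSS mice, with a log2 fold change of 0.05 (standard error 0.36). *Igsf10*, *Gpr171*, *P2ry12*, *P2ry13* and *P2ry14* lie on the opposite strand inside or across this long gene, each with 58.3% or more of its counts, so its level is uncertain.

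**Figure D1:**
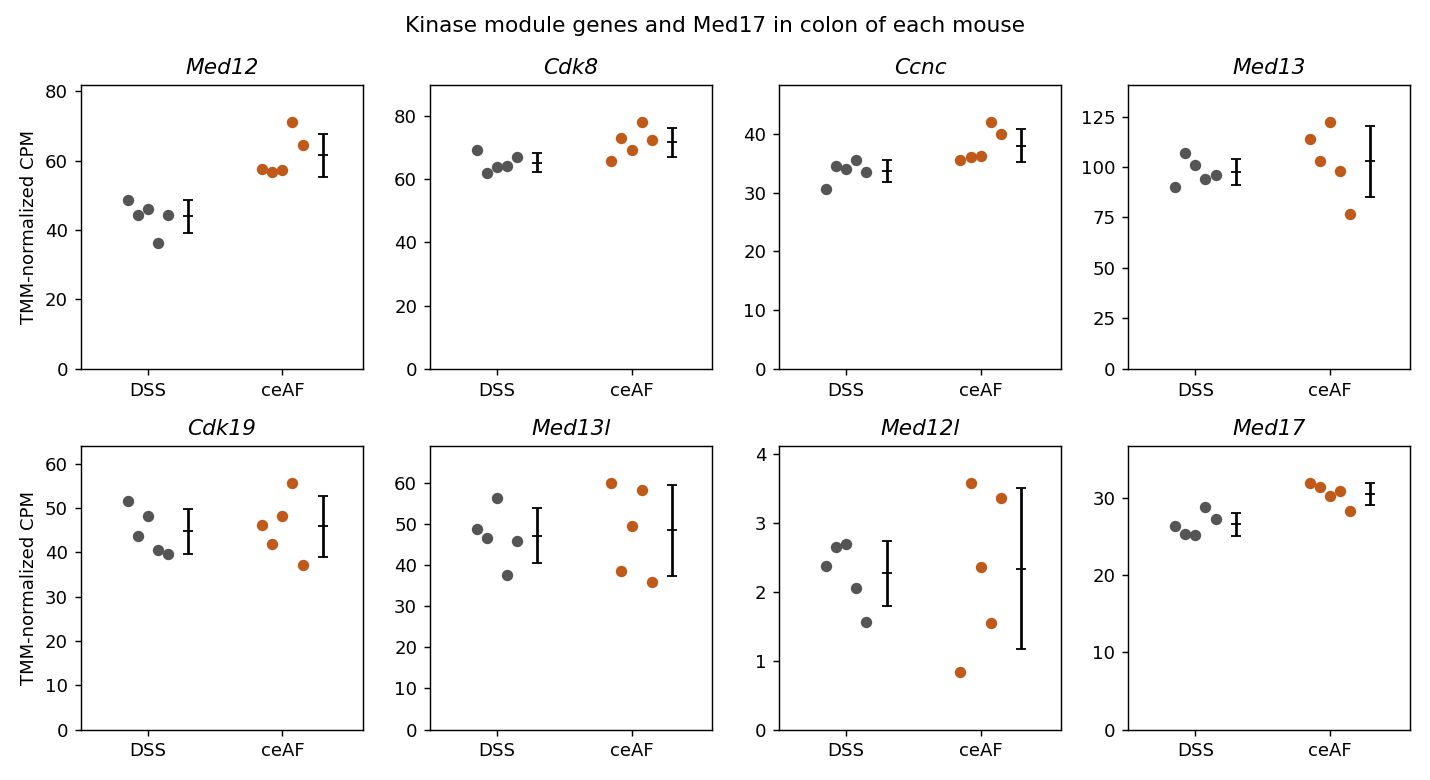
TMM-normalized CPM (vertical axes, from 0) of the 7 kinase module genes and *Med17* in colon of 5 DSS mice (grey) and 5 ceAF mice (orange), with replicates 1 to 5 from left to right. Each point is a mouse and the black bars are the mean ± SD. The groups are apart in *Med12* and, by a narrow gap, in *Ccnc*, and overlap in the other genes.

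All 7 kinase module genes were higher in mean with ceAF, with a median log2 fold change of 0.07, where 51.4% of all tested genes were higher and their median was 0.008. Without *Med12* the other 6 had a median of 0.06, and none of them had an unadjusted p under 0.05 with all 10 mice, while *Ccnc* did without ceAF-1. The direction of *Med13l*, *Med12l* and *Cdk19* did not hold in every fit. With limma-trend on log2(FPKM + 1) *Med13l* was lower, though its value rounded to 0, and at a pseudocount of 0.1 *Med12l* was lower as well, at −0.02. The medians of all tested genes in these fits were −0.018 and −0.03. The cause of these 2 changes of direction was not tested. In 6 of the 10 fits that left out a mouse at least 1 gene was lower, namely *Med13l* without DSS-4 or ceAF-1, *Med12l* without DSS-5, ceAF-2 or ceAF-5, and *Cdk19* and *Med13l* without ceAF-4. The module median was 0.03 in both FPKM fits, and leaving out a mouse moved it between 0.05 without ceAF-3 and 0.17 without ceAF-1. The summed level of the module was 334.3 ± 16.0 CPM in DSS and 370.4 ± 29.4 CPM in ceAF (SD, n = 5 each). Without *Med12* the sums were 290.4 ± 12.2 and 308.9 ± 28.3 CPM, and the ceAF range, 265.4 to 333.7 CPM, enclosed the DSS range of 273.9 to 305.8 CPM.

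Outside the kinase module, 14 of 26 core genes were higher and 12 lower in mean, with a median log2 fold change of 0.02. On the FPKM scale 11 of the 26 were higher, where 44.6% of all tested genes were at a pseudocount of 1 and 43.9% at 0.1. Genes were placed in the parts of the complex from general knowledge, and *Med27* to *Med30*, on which accounts differ, were kept apart from head and tail. In the head without them, 4 of 7 were higher and the median was 0.03, and it ran from −0.04 to 0.08 with a mouse left out. In the FPKM fits the head median was −0.02 and −0.04, where that of all tested genes was −0.018 and −0.03. With them, an alternative chosen after seeing the data, 4 of 11 were higher and the median was −0.04. *Med17*, a central head subunit that contacts the polymerase, was the head gene with the smallest unadjusted p. It had 26.4, 25.4, 25.1, 28.8 and 27.2 CPM in DSS-1 to DSS-5. In ceAF-1 to ceAF-5 it had 32.0, 31.4, 30.3, 30.9 and 28.3 CPM. The groups overlapped only through ceAF-5, which lay below DSS-4, and the log2 fold change was 0.20 (standard error 0.08). Its unadjusted p was over 0.05 without DSS-1, DSS-2, DSS-3, ceAF-1, ceAF-2 or ceAF-4. At the other end of the head, *Med22* had a log2 fold change of −0.17 and *Med11* of −0.15. *Med6* was the steadiest member, with a coefficient of variation of 2.68% among DSS and 3.88% among ceAF mice.

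In the middle, 5 of 9 genes were higher in mean and the median log2 fold change was 0.02. On the FPKM scale 3 of 9 were higher, where 44.6% and 43.9% of all tested genes were at the 2 pseudocounts. Values ran from −0.18 for *Med10* to 0.16 for *Med7*. *Med1*, the subunit that nuclear receptors bind, had 0.14, and *Med26*, which brings in elongation factors, had 0.13 with a standard error of 0.18. On the opposite strand, *Tm7sf3* overlaps *Med21* with 265% as many counts and *Gm17435* overlaps *Med26* with 36%. The levels of *Med21* and *Med26* are therefore uncertain too. The scaffold *Med14*, which is also on chromosome X, had 0.11 with a standard error of 0.13, and its ranges of 35.4 to 53.4 CPM in DSS and 41.3 to 58.6 CPM in ceAF overlapped. The 498 tested genes of chromosome X had a median log2 fold change of 0.03.

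In the tail without *Med27* to *Med30*, 4 of 5 genes were higher in mean and the median log2 fold change was 0.11. With them, again chosen after seeing the data, 4 of 9 were higher and the median was −0.04. The 4 were *Med15*, a target of the sterol-regulated factors, at 0.17, *Med25* at 0.13, *Med23* at 0.11 and *Med24* at 0.08, while *Med16* had −0.07. The standard errors of these values were 0.09 to 0.13. The genes kept apart, *Med27* to *Med30*, were all lower in mean, with a median of −0.07. *Med28* had the lowest value of all members, −0.25 with a standard error of 0.14, and its ranges of 41.4 to 57.4 CPM in DSS and 31.0 to 48.7 CPM in ceAF overlapped. Counts of higher genes in the tail and in this group were the same with each other normalization, DESeq2 and FPKM. In this group 1 of the 4 genes was higher without DSS-4, DSS-5, ceAF-4 or ceAF-5, and with the length index of each mouse as a covariate.

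**Figure D2:**
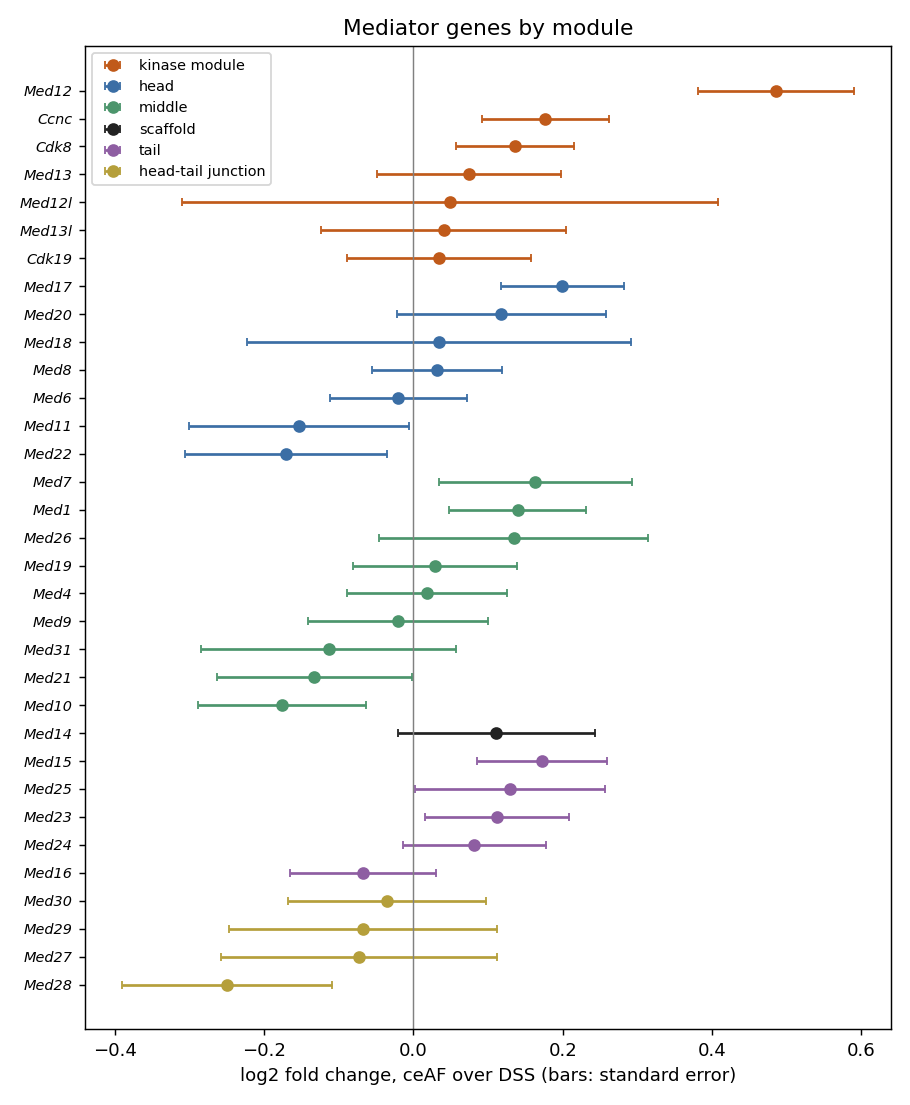
Log2 fold change of ceAF over DSS (horizontal axis) for the 33 Mediator genes, grouped and colored by module, with bars for the standard error of the edgeR fit over 5 and 5 mice. *Med12* stands at 0.49, and the other members lie between −0.25 and 0.20.

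Over all 33 members, 21 were higher and 12 lower in mean, and the median log2 fold change was 0.03. The summed level of the complex was nearly equal among DSS mice, 1036 to 1049 CPM with an SD of 4.71, and ranged from 1014 to 1140 CPM in the ceAF group, with an SD of 48.8. The lowest ceAF mouse was ceAF-5 and the highest ceAF-1, the mice with the largest mitochondrial shares. Without *Med12* the sums were 998.9 ± 8.57 CPM in DSS and 1035 ± 50.6 CPM in ceAF. The median coefficient of variation of the members within a group was 10.6% in DSS and 12.6% in ceAF, where that of all tested genes was 19.5% and 23.0%. Members and all genes were not matched for count level, and whether level accounts for the difference was not tested. Above the median of all genes were *Med27* at 25.9% and *Med12l* at 20.8% in DSS, and *Med12l* at 49.9% and *Med18* at 36.8% in ceAF.

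Levels were compared between genes as TMM-normalized CPM per kilobase of exonic length, averaged over the 10 mice. The highest were *Med19* at 14.7 ± 1.51 and *Med8* at 14.2 ± 0.979, which did not differ beyond their spread, followed by *Med30* at 12.2 ± 1.52 and *Med6* at 10.5 ± 0.339. In the kinase module the order was given by group, since *Med12* took a different place in each. In DSS it was *Med13* at 9.0 ± 0.605, *Cdk19* at 7.66 ± 0.876, *Cdk8* at 6.62 ± 0.299, *Ccnc* at 6.57 ± 0.366, *Med12* at 5.70 ± 0.602, *Med13l* at 3.05 ± 0.435 and *Med12l* at 0.178 ± 0.0369 (SD, n = 5). In ceAF it was *Med13* at 9.48 ± 1.6, *Med12* at 7.98 ± 0.811, *Cdk19* at 7.84 ± 1.19, *Ccnc* at 7.42 ± 0.559, *Cdk8* at 7.28 ± 0.470, *Med13l* at 3.14 ± 0.716 and *Med12l* at 0.183 ± 0.0914 (SD, n = 5). From *Med13* down to the fifth gene, each lay within the summed SDs of its neighbour in either group, and *Med13l* and then *Med12l* lay lower by more than that. The lowest members outside the module were *Med18* at 2.14 ± 0.591 and *Med27* at 2.42 ± 0.468. *Med19* shares its locus with *Zdhhc5* and *Tmx2* on the opposite strand, so its level is uncertain.

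The levels of the paralogs were compared within each mouse, and 3 pairs were tested with exact sign-flip permutation tests over the 10 mice, two-sided, on CPM per kilobase of exonic length. *Med13* exceeded *Med13l* in 10 of 10 mice, 3.01-fold in the geometric mean (range 2.40 to 3.80; exact permutation p = 0.00195, the smallest that 10 mice can give, Benjamini-Hochberg adjusted p = 0.00293). *Med12* exceeded *Med12l* in 10 of 10 mice (range 26.3 to 114-fold), with the same exact p and adjusted p. The size of this ratio holds the *Med12* difference that chose the members, with a log2 ratio of 5.03 ± 0.32 in DSS and 5.62 ± 0.89 in ceAF (SD, n = 5 each). The kinases lay close together, with a ratio of *Cdk8* to *Cdk19* of 0.901 and a log2 ratio of −0.15 ± 0.18 (SD, n = 10, exact permutation p = 0.0332, adjusted p = 0.0332). In 3 of 10 mice, DSS-5, ceAF-2 and ceAF-5, *Cdk8* was the higher of the pair on this scale. The direction depends on the exonic lengths, 9832 bases for *Cdk8* and 5846 for *Cdk19*, since in CPM without scaling by length *Cdk8* was higher in 10 of 10 mice, 1.52-fold in the geometric mean. The other pairs kept their direction in CPM, in 10 of 10 mice each, but with smaller ratios. In the geometric mean over both groups, *Med12* over *Med12l* was 24.2 in CPM and 40.1 per kilobase, and *Med13* over *Med13l* was 2.11 in CPM. For *Cdk8* over *Cdk19*, the exact p stayed under 0.05 when DSS-5, ceAF-2 or ceAF-5 was left out and passed above it when any of the other 7 was left out, with log2 ratios of −0.16 to −0.13. In each group this log2 ratio was −0.20 ± 0.15 in DSS and −0.10 ± 0.21 in ceAF (SD, n = 5 each).

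All tested genes were divided by exonic length into 4 classes of nearly equal size. In the longest class, from 6383 bases, 12 of 12 members were higher in mean with ceAF, with a median log2 fold change of 0.12. Among all genes of that class 58.9% were higher and the median was 0.04. The members there included *Med12*, *Med12l*, *Med13*, *Med13l* and *Cdk8* of the kinase module. In the shortest class, up to 2340 bases, 2 of 8 members were higher, as were 43.2% of all genes. The Spearman correlation of length with log2 fold change was 0.52 across the 33 members and 0.09 across all tested genes, where genes share the same 10 libraries and are not independent. Of the 12 long members 11 were higher in 6 of the 10 fits that left out a mouse. On the FPKM scale 11 of the 12 long members were higher at a pseudocount of 1 and 10 at 0.1. Of all tested genes, of any length, 44.6% and 43.9% were higher in these fits. The share within the longest class is not given here for them.

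A length index for each mouse, the median relative log2 CPM of the longest class of genes minus that of the shortest, was −0.063 ± 0.117 in DSS and 0.037 ± 0.114 in ceAF (SD, n = 5 each). Its lowest value was −0.235 in DSS-4 and its highest 0.18 in ceAF-4, the mice with the lowest and the highest *Med12*. With the index as a covariate, an alternative chosen after seeing the data, the log2 fold change of *Med12* was 0.42 with a standard error of 0.11. In that fit 5 of 7 kinase module genes were higher, with *Cdk19* and *Med13l* lower, and 10 of the 12 long members were higher. Of all tested genes, of any length, 51.8% were higher in it.

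**Figure D3:**
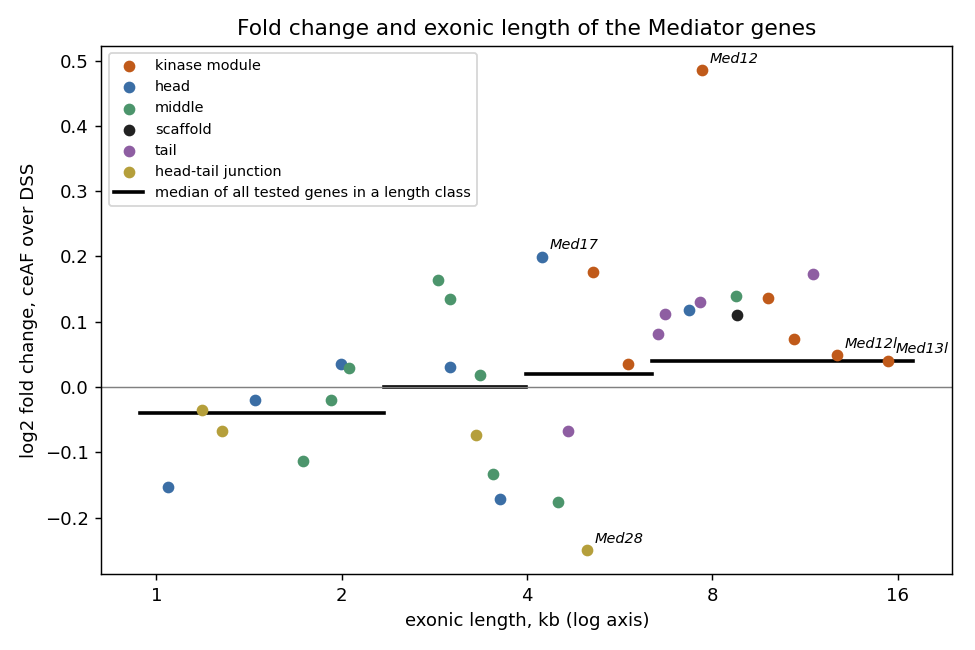
Exonic length in kilobases (horizontal, log axis) against the log2 fold change of ceAF over DSS (vertical axis) for the 33 Mediator genes, colored by module. Black lines are the median of all tested genes in each of 4 length classes, from −0.04 in the shortest to 0.04 in the longest, and all 12 members of the longest class lie above 0 in this fit, and 10 or 11 of them on the FPKM scale.

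Within groups, the kinase module genes were compared with *Med12* mouse by mouse, as deviations of log2 CPM from the group mean. The p-value that chose the members depends on the spread of *Med12* within groups, but not on its correlation with other members. Of the 6 pairs, *Cdk8* had the highest Pearson correlation, 0.59 (n = 10, exact permutation p = 0.0907, adjusted p = 0.47), but a Spearman correlation, on ranks within each group, of 0.25 (exact permutation p = 0.544, adjusted p = 0.816). *Cdk19* followed with 0.51 (exact permutation p = 0.157, adjusted p = 0.47) and a Spearman correlation of 0.60 (exact permutation p = 0.109, adjusted p = 0.435). Without DSS-4 and ceAF-4, the mice farthest out in *Med12*, these Pearson values were 0.54 and 0.18. With a single mouse left out, that of *Cdk8* ran from 0.38 without ceAF-4 to 0.73 without DSS-4, and that of *Cdk19* from 0.26 without ceAF-4 to 0.80 without ceAF-5. For *Med13l*, *Ccnc*, *Med12l* and *Med13* the Pearson values were 0.42, 0.16, 0.05 and −0.34, with Benjamini-Hochberg adjusted p-values from exact permutations of 0.494 to 0.921. Without DSS-4 and ceAF-4 these 4 Pearson values were −0.03, 0.21, 0.20 and −0.61, and single mice moved them too. With a mouse left out, *Med13l* ran from 0.18 without DSS-4 to 0.66 without ceAF-5, and *Ccnc* from −0.29 without ceAF-4 to 0.60 without DSS-4. *Med12l* ran from −0.22 without ceAF-1 to 0.23 without ceAF-4, and *Med13* from −0.58 without DSS-4 to −0.25 without ceAF-3. The Spearman values over the 10 mice were 0.55, 0.00, 0.05 and −0.35, with adjusted p-values of 0.435 to 1. No pair passed the test. Over the 21 pairs of module genes the median within-group correlation was 0.07, and over the 325 pairs of core genes it was 0.11.

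As a description over the same 10 mice, *Med14* followed *Med12* most closely among the core genes, with a within-group correlation of 0.69. *Med14* was lowest in DSS-4, at 35.4 CPM, and highest in ceAF-4, at 58.6 CPM, the mice farthest out in *Med12*. Its correlation without them is not given here. *Med30* at −0.88 and *Med28* at −0.83 ran most strongly against *Med12*. Both were highest in DSS-4, at 18.51 and 57.38 CPM, and lowest in ceAF-4, at 12.65 and 30.96 CPM. Their correlations without these mice are not given here either. The median over the other 32 members was −0.17, and over all tested genes 0.01. By length class, the median correlation of all genes with *Med12* went from −0.08 in the shortest to 0.13 in the longest. The 5 genes outside the complex most like *Med12* within groups were *Oxct2b*, *Trim44* and *Zbed6* at 0.95 and *Ubr1* and *Zc3h11a* at 0.94. They were picked as the highest of all tested genes outside the complex over only 10 mice. Such values can arise from the picking alone, and they were not tested. In the table *Zbed6* lies inside *Zc3h11a* on the same strand, so these 2 share a locus and may share reads. *Oxct2b* was low, with a mean of 0.709 CPM in DSS.

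Other parts of the transcription machinery were described from lists in the same way, beside the shares of all tested genes that were higher (3.26%) or lower (3.67%) at an unadjusted p under 0.05. The 12 subunits of RNA polymerase II had a median log2 fold change of −0.08, with 1 lower at an unadjusted p under 0.05, *Polr2e* at −0.25, and 0 higher. Of 18 general transcription factor genes, 2 were higher at that limit and 0 lower, with a median of 0.06. These were *Tbp*, the TATA-binding protein, at 0.25 and *Cdk7*, the kinase of TFIIH, at 0.32. Elongation factors gave 1 of 15 higher, *Ccnt2*, a cyclin of P-TEFb, at 0.25, and 0 lower, with a median of 0.05. *Ccnt1* and *Cdk9*, also of P-TEFb, had −0.06 and −0.16. Cohesin and its loader gave 1 of 10, *Mau2* at 0.23, and coactivators 1 of 17, the methyltransferase gene *Kmt2b* at 0.24, with 0 lower in each and medians of 0.09. In mean, 16 of 17 coactivator genes and 9 of 10 cohesin genes were higher, where 51.4% of all tested genes and 58.9% of the longest class were. These counts were 13 and 7 on the FPKM scale, where 44.6% and 43.9% of all tested genes were higher at the 2 pseudocounts. With the length index as a covariate they were 10 and 3, where 51.8% of all tested genes were higher.

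Markers of cell types were described over the same mice, where the edgeR test called 0 genes at an adjusted p under 0.05. T cell markers were lower in mean in 6 of 6 genes, 5 at an unadjusted p under 0.05, with a summed level of 69.2, 59.7, 59.2, 68.0 and 24.2 CPM in DSS-1 to DSS-5. In ceAF-1 to ceAF-5 the sum was 20.1, 41.4, 31.3, 14.0 and 19.6 CPM, so that DSS-5 lay among the ceAF mice. *Trbc2* was the most abundant of these genes per length. The 5 neutrophil markers were all lower in mean, 4 of them at that limit, and their median log2 fold change was −3.94. *Ly6g*, the most abundant per length, was the exception, at −0.67 (standard error 0.58). The sums of the 5 were 1485, 122.5, 278.4, 199.7 and 547.8 CPM in the DSS mice and 21.0, 248.9, 183.8, 125.3 and 212.2 CPM in the ceAF mice, with DSS-1 far above the rest. Without *Ly6g* they were 1256, 12.8, 150, 15.5 and 65.8 CPM in the DSS mice and 1.6, 11.9, 11.8, 33.5 and 18.3 CPM in the ceAF mice, with the groups overlapping. The 5 macrophage markers, led by *C1qa*, were all lower in mean, 2 at that limit. Their sums were 145.9, 102.7, 106.7, 112.6 and 73.5 CPM in the DSS mice and 32.5, 88.0, 101.8, 68.0 and 83.2 CPM in the ceAF mice.

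Of B cell, fibroblast, smooth muscle and enteric neuron or glia markers, 0 passed that limit, and the median log2 fold changes were −0.69, −0.37, −0.26 and −0.28. The B cell sum was 194.8 CPM in DSS-1 and 25.9 to 33.3 CPM in the other DSS mice, and without DSS-1 the direction turned, with 5 of 5 B cell and 3 of 5 fibroblast markers higher with ceAF. The 8 colonocyte and goblet markers, led by *Car1*, were detected in all mice, with a median of 0.03 and sums of 13020 to 24456 CPM in DSS and 14881 to 26182 CPM in ceAF. No marker was at 0 in any mouse. The part of these cell types in the Mediator values was not tested.

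The promoters of the members were read from RefSeq (GRCm38.p6), as the 250 bases before each start, because all kinase module genes were higher in mean in the edgeR fit of the 10 mice, though not in every alternative. The table held 32 promoters of 28 members, and *Cdk19*, *Med8*, *Med23*, *Med24* and *Med30* were missing. Searched on both strands, the GC box GGGCGG was present in 20 of 32 member promoters (62.5%) and in 32.7% of all 32851 promoters. It was present in each of the 6 kinase module promoters. The ETS-type motif CCGGAAG was in 18.8% against 6.91%, CCAAT in 37.5% against 33.8%, and TATAAA in 9.38% against 12.4%. Member promoters held a median of 15 CG dinucleotides, and all promoters 6. A match is a description of the sequence and not a bound site.

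The promoters compared are those of *Med12* and *Ccnc*, whose groups were apart in CPM, and of *Med12l*, the scarce paralog and lowest member. In FPKM the groups overlapped for *Ccnc*. The promoter of *Med12* lies at chrX:101273841-101274090, that of *Med12l* at chr3:59006728-59006977 and that of *Ccnc* at chr4:21727451-21727700, all on the plus strand. Capitals mark matches to the 4 motifs on either strand, and each sequence runs 5′ to 3′ and ends at the base before the start. *Med12* holds a GC box as its only match, *Med12l* likewise, and *Ccnc* holds GC boxes and CCAAT boxes.
Med12: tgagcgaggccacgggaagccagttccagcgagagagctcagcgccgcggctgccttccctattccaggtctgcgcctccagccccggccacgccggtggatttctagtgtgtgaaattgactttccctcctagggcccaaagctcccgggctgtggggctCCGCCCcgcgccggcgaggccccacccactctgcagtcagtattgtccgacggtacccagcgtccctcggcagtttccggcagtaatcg
Med12l: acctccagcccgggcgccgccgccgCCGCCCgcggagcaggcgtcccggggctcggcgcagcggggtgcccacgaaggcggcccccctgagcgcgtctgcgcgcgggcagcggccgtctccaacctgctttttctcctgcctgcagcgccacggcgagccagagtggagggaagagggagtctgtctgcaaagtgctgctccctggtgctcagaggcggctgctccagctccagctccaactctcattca
Ccnc: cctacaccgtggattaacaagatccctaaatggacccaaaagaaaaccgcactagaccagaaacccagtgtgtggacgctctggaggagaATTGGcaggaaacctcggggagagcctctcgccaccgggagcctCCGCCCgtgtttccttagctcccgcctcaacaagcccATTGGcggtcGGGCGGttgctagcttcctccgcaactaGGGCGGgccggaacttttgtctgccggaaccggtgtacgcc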

How the data were processed

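RNA of colon from 5 DSS and 5 ceAF mice was sequenced by a company. The counts that the authors deposited are whole reads per gene and mouse, without normalization. The FPKM values that the authors deposited equal the count scaled by exonic length and library total, within 0.01 for 100% of values. The submitters' processing notes name cutadapt 1.9.1 and HISAT2 2.2.1. The counting program and genome build are not given in the sources used here. Of 56691 genes, 2639 had no symbol.

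Groups follow the sample labels. Differences were computed with edgeR 4.0.16 in R 4.3.3, with filterByExpr at a minimum count of 10, TMM factors, the two-sided quasi-likelihood test and Benjamini-Hochberg adjustment over 16545 genes. The script was tested on simulated data, where the edgeR test called 0% of 1.5-fold, 40.5% of 2-fold and 91% of 4-fold changes. The largest fold among the members was 1.40, for *Med12*. The lack of calls among the members therefore cannot show that they did not change. Log2 CPM used a prior count of 1. Named are the kinase module genes, members with an unadjusted p under 0.05, the 5 genes most like *Med12* and up to 3 genes of each list. Other members were named after their values were seen. Alternatives used DESeq2 1.42.0, limma 3.58.1, other normalizations and filters, a robust fit, a block for the replicate number, and each mouse left out. Between mice of the same group the chi-square per gene was 14.7 to 149, so within a group no library was a copy of another. Members and lists were chosen with earlier results of these data known. The lists were RNA polymerase II, general transcription factors, elongation, cohesin, coactivators and 8 sets of cell type markers. Motifs and tests over mice were computed in Python 3.11.15 with scipy 1.17.1, and figures were drawn with matplotlib 3.10.9.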

Additional observations from a re-analysis of the deposited data

Results flagged for a closer look

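In DSS-4, *Med30* stood apart from the other DSS mice, at 18.5 CPM against 13.8 in the next mouse, a gap of 0.936 of the group's range. In ceAF-1, *Med4* stood apart from the other ceAF mice, at 24.3 CPM against 19.5 in the next mouse, a gap of 0.721 of the range. The limit for 5 mice is 0.71. Chance passes it in about 1 in 20 groups, which gives 3.3 of the 66 groups examined, and 2 passed it.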

How the results depend on the processing

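The log2 fold change of *Med12* lay between 0.40 and 0.53 in all 20 alternatives, and the core median between −0.03 and 0.05. Genes past the adjusted threshold numbered 31 with DESeq2, *Med12* among them, and 0 to 3 with a mouse left out, the 3 without DSS-5. Members at an unadjusted p under 0.05 numbered 1 without the filter on low counts and ranged from 1 to 3 with a mouse left out. All genes at that limit numbered 1733 without the filter and 712 to 1872 with a mouse left out. The kinase module median was 0.03 in both FPKM fits and ranged from 0.05 to 0.17 with a mouse left out, and the log2 ratio of *Cdk8* to *Cdk19* from −0.19 to −0.13. Ratios of *Med13* to *Med13l* and of *Med12* to *Med12l* kept their side of the threshold. The causes were not tested. With a minimum count of 50, *Med12l* gave no value.

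With the replicate block, 1 member was under 0.05, as were 694 of all genes. It was *Med12*, whose log2 fold change was 0.49 (Benjamini-Hochberg adjusted p 0.972, edgeR). Mice with the same number showed no common deviation, with correlations of −0.25 to 0.29. So few values cannot exclude that the numbers pair the mice. In that fit *Med12l* was lower and the other 6 kinase module genes higher. Depth limits *Med12l*, with 11 to 61 counts per mouse.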
